A study of Mus musculus with 8 samples.

Results

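Allantois endothelium is the endothelial cell type that the authors' combined annotation places in the allantois. It made up 426 of the 28723 chimera cells in the deposited table, every cell carrying that combined label being a member. Of these, 179 were among the 8566 Eomes-KO cells and 247 among the 20157 WT host cells. The chimeras were made by injecting tdTomato+ male mouse embryonic stem cells (ESCs) that lacked Eomes into wild-type C57BL/6 blastocysts of either sex. Each of 4 independent ESC clones, with the gene deleted from intron 1 to intron 5, gave a pool of embryos collected around E8.5. The pools were sorted by tdTomato into Eomes-KO cells (tdTomato+) and WT host cells (tdTomato−), which gave 4 libraries of each genotype. Every library mixes several embryos, and no unedited ESCs were injected in these samples. The loss of Eomes therefore cannot be told apart from ESC origin, the tdTomato reporter or the sex of the ESCs. Libraries are named here by their number of cells.

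The allantois is an extraembryonic mesodermal outgrowth of the posterior primitive streak that fuses with the chorion and supplies the vessels of the umbilical cord and of the fetal placenta. Its endothelium arises within the allantoic mesoderm itself, by vasculogenesis, and not by ingrowth from the yolk sac. Pecam1 and Cdh5 encode adhesion proteins of endothelial junctions, and the transcription factor genes Hoxa10 and Tbx4 are expressed in the allantois. Eomes encodes a T-box transcription factor of the primitive streak and early mesoderm. The comparison of the 2 genotypes within chimeras asks which cell types can form from cells without Eomes.

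The name rested on the mapping of each chimera cell to atlas cells of normal embryos, and it could not be checked against the 4 marker genes because the values analysed here hold no gene counts. All 426 members carried allantois endothelium as their extended atlas label. Under the original, coarser atlas labels, 424 were haematoendothelial progenitors, the common name for early cells on the way to blood or endothelium. The other 2, both in the WT host library of 5819 cells, were endothelium. The coarse class was wider than the population described here, since it held 679 cells in all. Besides the 424 members it contained 197 cells of embryo proper endothelium, 29 of venous endothelium, 15 of allantois mesoderm and 11 that kept the name haematoendothelial progenitors. Among Eomes-KO cells, 179 of the 215 haematoendothelial progenitors were allantois endothelium, against 245 of 464 among WT host cells. A further 3 cells had the extended label of allantois endothelium but the original label allantois, and these were counted as allantois mesoderm in the combined annotation. Their extended label scores, the fraction of the 15 nearest atlas cells with the transferred label, were 0.533, 0.600 and 0.667.

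The 8 libraries held from 602 to 8133 cells, and the 2 smallest were both Eomes-KO. Summed over cells, a library held 19370600 to 66414390 unique molecular identifiers (UMIs), each of which marks 1 captured RNA molecule. The cells of allantois endothelium supplied 0 to 1854008 of these. Of the 28643 cell barcodes, 80 occurred in more than 1 library, and 5 members had such a barcode.

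Allantois endothelium was found in 3 of 4 Eomes-KO libraries and in 4 of 4 WT host libraries, and its mean share of epiblast-derived cells was similar in both, with a far wider spread among Eomes-KO libraries. The Eomes-KO counts were 0 in the library of 602 cells, 5 in that of 1153, 91 in that of 3346 and 83 in that of 3465. As shares of epiblast-derived cells (all cells except extraembryonic endoderm and ectoderm) these were 0%, 0.435%, 2.72% and 2.40%. The small libraries thus lay below every WT host library and the large ones above. The WT host counts were 32, 33, 84 and 98 in the libraries of 2414, 3791, 5819 and 8133 cells. Their shares were 1.34%, 0.878%, 1.63% and 1.23%. The mean over libraries was 1.39% ± 1.37 for Eomes-KO against 1.27% ± 0.311 for WT host (SD, n = 4 each). In the empty library, 0 of 601 cells allows a share of up to 0.499% if the limit is set at 3 cells, and up to 0.612% by the exact 95% interval, counting error only. Both are below the WT host range.

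An edgeR quasi-likelihood test across 33 cell types gave a log2 fold change of 0.28 (SE 0.59, adjusted p = 0.678) for allantois endothelium, Eomes-KO over WT host. In the same fit 72.7% of the types were called at an adjusted p of 0.05, 24.2% higher and 48.5% lower in Eomes-KO, so a lack of a call was the less common outcome. The sign was not stable. Without the Eomes-KO library of 3346 cells the log2 fold change was −0.17, without that of 3465 cells −0.05, and with DESeq2 ratio size factors −0.61. Without the 2 small Eomes-KO libraries, an alternative chosen after seeing the data, it was 1.01 (edgeR adjusted p = 0.0467). The abundance of allantois endothelium among all epiblast-derived cells therefore had no direction that held across libraries and scalings.

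Allantois mesoderm, by contrast, was more frequent in every Eomes-KO library. It took 12.6%, 10.0%, 16.1% and 11.9% of epiblast-derived cells in the Eomes-KO libraries of 602, 1153, 3346 and 3465 cells. In the WT host libraries of 2414, 3791, 5819 and 8133 cells it took 2.25%, 2.02%, 4.56% and 3.57%. The edgeR log2 fold change was 2.02 (SE 0.32, adjusted p = 7.7e-07). Its size depended on the scaling. It was 1.12 with DESeq2 ratio size factors, 1.62 with blood left out of the denominator and 2.66 with DESeq2 poscounts size factors. The library without allantois endothelium was thus not short of allantois mesoderm.

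Set against the mesoderm of the same library, endothelium was a smaller part of the allantois in Eomes-KO than in WT host. In the Eomes-KO libraries allantois endothelium was 0 of 76, 5 of 120, 91 of 630 and 83 of 496 cells of allantois mesoderm and allantois endothelium combined. These shares are 0%, 4.17%, 14.4% and 16.7%. In WT host it was 32 of 86, 33 of 109, 84 of 319 and 98 of 383 cells, which are 37.2%, 30.3%, 26.3% and 25.6%. The highest Eomes-KO library lay below the lowest WT host library. The means were 8.84% ± 8.04 and 29.9% ± 5.32 (SD, n = 4 each), a difference of −21.0 percentage points. An exact two-sided permutation test over the libraries gave p = 0.0286, the smallest that 4 against 4 allows, and p = 0.0571 after adjustment over this share and the share of endothelium given further on, so it did not pass the correction. For the empty library, 0 of 76 cells allows a share of up to 3.95% if the limit is set at 3 cells, and up to 4.74% by the exact 95% interval, counting error only. Without the 2 small Eomes-KO libraries the difference was −14.3 points, with no overlap and an exact permutation p of 0.133, the smallest for 2 against 4. The share has the mesoderm in its denominator, so it moves with the higher number of mesodermal cells as well as with the number of endothelial cells.

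**Figure D1:**
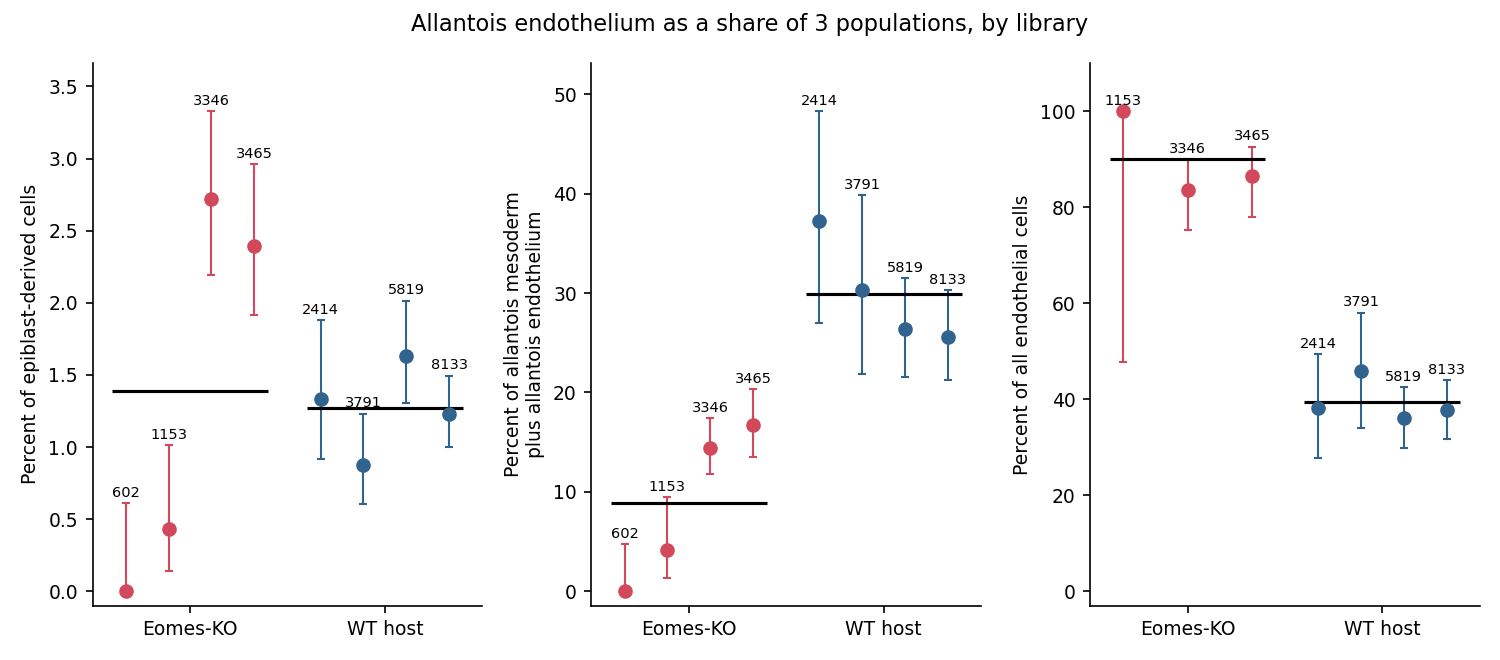
Allantois endothelium as a percent of epiblast-derived cells (left), of allantois mesoderm plus allantois endothelium (middle) and of all endothelial cells (right), 1 point per library labelled with its number of cells. Vertical bars are exact 95% binomial intervals (counting error only) and horizontal lines are means; the genotypes overlap on the left only, where Eomes-KO libraries span 0% to 2.72% and WT host libraries 0.878% to 1.63%.

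Mapped stage, the embryonic age most frequent among the nearest atlas cells, allowed the same share to be taken within each stage. That stage was held by a minority of the nearest atlas cells for 254 of the 426 members (59.6%), and by all of them for 0 members. The median fraction holding it was 0.467 for members and 0.533 for allantois mesoderm cells. Cells were thus matched by age only loosely. The shares by stage were alternatives chosen after seeing the data, and stage comes from the same atlas neighbours as the label. At E8.0 allantois endothelium was 0%, 10.3%, 17.4% and 22.2% of the allantois in the Eomes-KO libraries of 602, 1153, 3346 and 3465 cells. In the WT host libraries of 2414, 3791, 5819 and 8133 cells it was 45.8%, 42.3%, 28.9% and 43.3% at that stage. At E8.25 the Eomes-KO shares were 0%, 2.90%, 18.5% and 16.9%, and the WT host shares were 38.1%, 35.6%, 30.3% and 19.2%. The gap between the closest libraries was narrow at this stage, 18.5% against 19.2%. At E8.5 the Eomes-KO shares were 0%, 0%, 7.98% and 10.8%, and the WT host shares were 33.3%, 16.7%, 15.1% and 21.2%. The genotypes overlapped at none of these stages, with mean differences of −27.6, −21.2 and −16.9 points and an exact permutation p of 0.0286 at each. That p is the smallest that 4 against 4 allows and was not adjusted. The splits reuse the cells of the share over all stages, so they are not separate evidence. Pooled over the libraries of a genotype, the share was lower at E8.5 than at E8.0 in both, 7.85% against 18.2% in Eomes-KO and 20% against 37.8% in WT host. Some of these values rest on few cells, such as 7 allantois cells at E8.0 in the Eomes-KO library of 602 cells and 15 at E8.5 in the WT host library of 2414 cells.

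**Figure D2:**
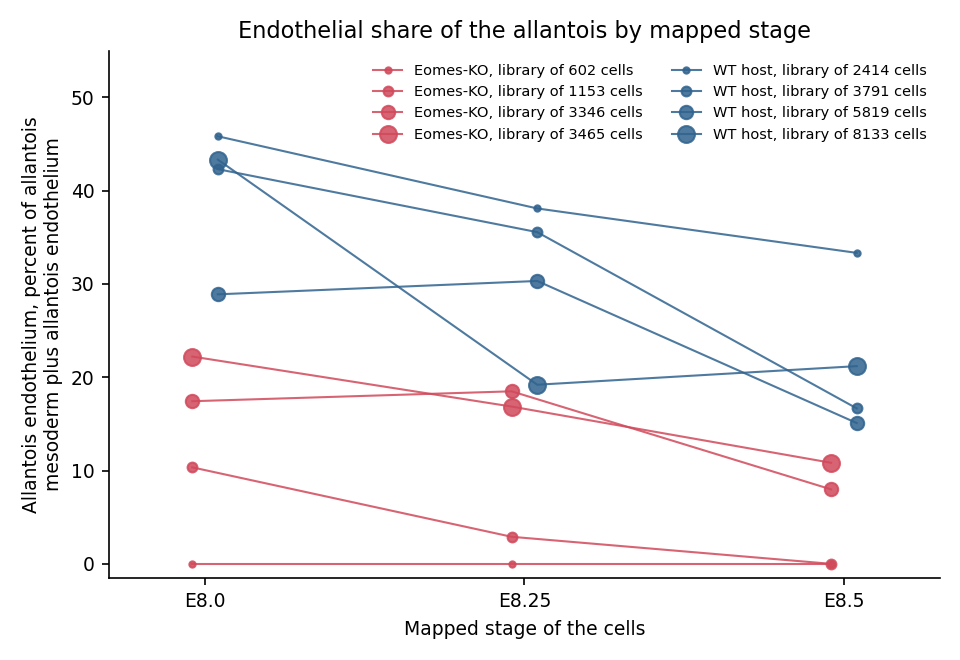
Allantois endothelium as a percent of allantois mesoderm plus allantois endothelium (vertical axis) among cells mapped to E8.0, E8.25 or E8.5 (horizontal axis), 1 line per library, with larger symbols for larger libraries of a genotype. The Eomes-KO lines lie below all WT host lines at each stage, and come closest at E8.25, at 18.5% and 19.2%.

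Among endothelial cells, allantois endothelium was the most frequent label in both genotypes, with a larger share in Eomes-KO. In WT host it had 247 cells in all, against 177 of embryo proper and 165 of venous endothelium. In the Eomes-KO libraries of 1153, 3346 and 3465 cells it was 5 of 5, 91 of 109 and 83 of 96 endothelial cells, or 100%, 83.5% and 86.5%. The Eomes-KO library of 602 cells held no endothelial cell of any label and could not enter. In WT host the shares were 38.1%, 45.8%, 36.1% and 37.7% in the libraries of 2414, 3791, 5819 and 8133 cells. The groups did not overlap. The means were 90.0% ± 8.80 (SD, n = 3) and 39.4% ± 4.37 (SD, n = 4), a difference of 50.6 points. The exact two-sided permutation p was 0.0571, the smallest that 3 against 4 can give, so this design could not reach the threshold of 0.05. Without the libraries of 602 and 1153 cells, the difference was 45.6 points.

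The remaining endothelial cells carried 4 other labels. Embryo proper endothelium, which lines the vessels of the embryo, had 0, 0, 14 and 8 cells in the Eomes-KO libraries. In WT host it had 19, 23, 47 and 88. Its edgeR log2 fold change was −1.95 (SE 0.67, adjusted p = 0.00943). Venous endothelium had 0, 0, 4 and 5 cells in Eomes-KO and 26, 12, 70 and 57 in WT host, with an edgeR adjusted p of 0.000383. Yolk sac endothelium and endocardium (the lining of the heart) were at 0 in all Eomes-KO libraries, as were cells that kept the name haematoendothelial progenitors, which were not counted as endothelium. In the WT host libraries yolk sac endothelium had 5, 3, 29 and 14 cells, endocardium 2, 1, 3 and 3, and haematoendothelial progenitors 4, 0, 2 and 5. The 3 endothelial labels called in this fit (embryo proper, venous and yolk sac) were all lower in Eomes-KO. Haematoendothelial progenitors were not called (edgeR adjusted p = 0.0981), and endocardium, with 9 cells, was too rare to be tested.

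By mapped stage, 9 members were placed at E7.75, 133 at E8.0, 203 at E8.25 and 81 at E8.5. The Eomes-KO members were 3, 46, 100 and 30 cells at these stages and the WT host members 6, 87, 103 and 51. E8.25 was the most frequent stage in 5 of the 7 libraries with members. The WT host library of 8133 cells departed from that order, with 39 of its 98 members at E8.0, 24 at E8.25 and 32 at E8.5. In the Eomes-KO library of 1153 cells, 3 members mapped to E8.0 and 2 to E8.25. The mean share of members at E8.5 was 11.4% ± 10.0 among 3 Eomes-KO libraries against 19.0% ± 9.80 among 4 WT host libraries (SD), which overlapped (exact two-sided permutation p = 0.514). The difference of −7.55 points shrank to −1.82 without the Eomes-KO library of 1153 cells, whose 5 members included none at E8.5, and to −3.00 without the WT host library of 8133 cells. The shares at E8.0 and E8.25 had exact permutation p-values of 0.857 and 0.629.

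How firmly the labels were transferred varied between stages and libraries. The original label was carried by all 15 nearest atlas cells (a score of 1) for 323 members, or 75.8%. This share was 80.0%, 83.5% and 86.7% in the Eomes-KO libraries of 1153, 3346 and 3465 cells, and 78.1%, 72.7%, 75% and 60.2% in the WT host libraries of 2414, 3791, 5819 and 8133 cells. The genotypes did not overlap, although the nearest libraries, at 80.0% and 78.1%, were close and the former rests on 5 members. The mean difference was 11.9 percentage points, with an exact permutation p of 0.0571, the smallest for 3 against 4, and 0.114 after adjustment over the original and extended labels (a comparison chosen after seeing the data). For the extended label, which has to separate the allantois from other endothelium, this held for 197 members, or 46.2% (48.0% of Eomes-KO and 44.9% of WT host members). The extended score was 1 for 71.9% of the members at E8.25, but for 25.6% at E8.0 and 18.5% at E8.5. Within a stage the genotypes differed in both directions, with 63% of Eomes-KO against 80.6% of WT host members at E8.25 and 34.8% against 20.7% at E8.0, pooled over libraries and not tested. Only 12 members had an extended score under 0.5, 4 of them Eomes-KO. The library medians of the extended score were 0.933 in each of the 3 Eomes-KO libraries. In WT host they were 0.867, 1, 1 and 0.8 for the libraries of 2414, 3791, 5819 and 8133 cells. The lowest belonged to the library with the fewest UMIs per member. Among the 98 members of that library, UMIs and extended score had a Spearman rank correlation of 0.16. In libraries with at least 20 members this correlation ranged from 0.05 to 0.17. The part of UMIs in the differences between libraries was not tested. The library medians of the extended and stage scores did not pass an exact permutation test between genotypes (p = 1 for both). The median original score was 1 in all 7 libraries, so it could not show a difference.

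The atlas cells closest to the members were partly the same for both genotypes. The 426 members had 270 distinct closest atlas cells, 122 for Eomes-KO and 192 for WT host, and 44 served both. These 44 were 36.1% of the Eomes-KO set and 22.9% of the WT host set. They were the closest cells of 79 Eomes-KO members (44.1%) and 64 WT host members (25.9%). Up to 11 members shared 1 atlas cell, and 186 atlas cells were used by 1 member only. The overlap therefore also depends on the number of members in each genotype. No baseline was taken, such as the overlap between libraries of the same genotype. These values describe the sets and do not show how alike the genotypes are. The atlas cell closest to a member was also closest to an allantois mesoderm cell for 13 members (3.05%) and to another endothelial cell for 33 (7.75%). Labels came from the same nearest atlas cells, so little sharing between labels was built in. The comparison groups also differ in size, 1793 mesodermal and 433 endothelial cells.

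**Figure D3:**
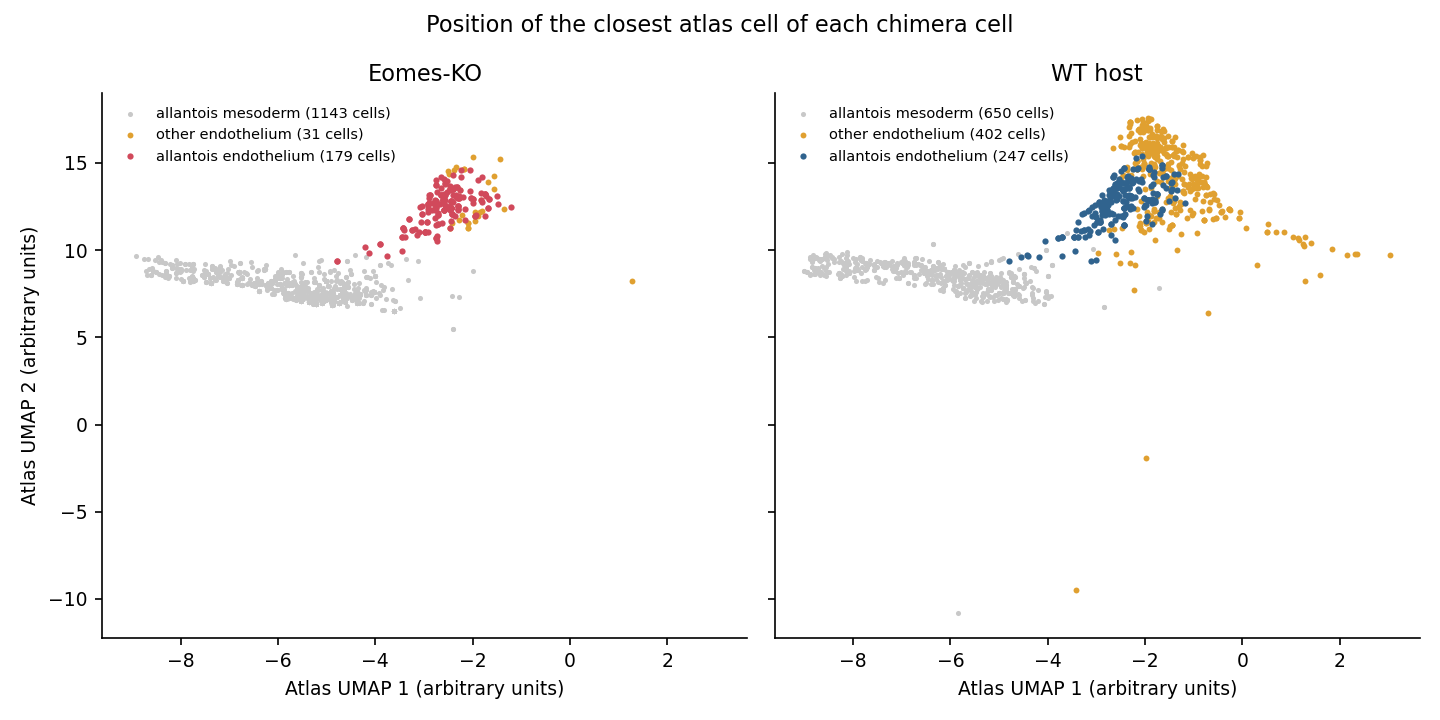
Position on the atlas UMAP (a map that places cells with similar expression near each other; both axes in arbitrary units) of the closest atlas cell of each cell, for Eomes-KO (left) and WT host (right). Allantois endothelium (179 and 247 cells) lies between allantois mesoderm (1143 and 650 cells) and most other endothelium (31 and 402 cells) in both genotypes, and few Eomes-KO cells fall in the area of other endothelium.

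UMIs per member varied widely between libraries of the same genotype. The median member had 20895, 20167 and 9443 UMIs in the Eomes-KO libraries of 1153, 3346 and 3465 cells. In the WT host libraries of 2414, 3791, 5819 and 8133 cells it had 8842.5, 11687, 11892 and 5202.5 UMIs. A pair of Eomes-KO libraries thus stood above all WT host libraries, while the third lay within their range. Over all cells the medians were 19296, 16995 and 8901 UMIs in the same 3 Eomes-KO libraries. In the 4 WT host libraries they were 8352.5, 10758, 11002 and 5124. The member medians thus followed those of the whole library, and the cause was not tested. Median genes detected per member followed the same order within Eomes-KO, at 4401, 4359 and 2967, and were 2883, 3244, 3360.5 and 2098 in WT host. The difference in UMIs had an exact permutation p of 0.171 and 0.286 after Benjamini-Hochberg adjustment over the 5 quality measures. Mitochondrial percent averaged 1.27 ± 0.153 over 3 Eomes-KO library medians against 1.55 ± 0.254 over 4 WT host ones (SD), and the doublet score 0.200 ± 0.0436 and 0.225 ± 0.0367. Ribosomal percent averaged 25.3 ± 0.682 and 24.5 ± 1.31, and none of the 5 measures passed. The difference in UMIs between libraries lies beside the difference in the endothelial share of the allantois. Among cells with at least 10000 UMIs that share differed by −26.2 points, with 4 Eomes-KO and 3 WT host libraries, no overlap and an exact permutation p of 0.0571, the smallest possible.

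Within a library, cells of allantois endothelium held more UMIs than the allantois mesoderm beside them. The difference in median UMIs, on the log2 scale, was 0.24, 0.42 and 0.11 in the Eomes-KO libraries of 1153, 3346 and 3465 cells. It was 0.09, 0.17, 0.18 and 0.03 in the WT host libraries of 2414, 3791, 5819 and 8133 cells. All 7 libraries were above 0. The mean was 0.18 ± 0.13 (SD, n = 7) with an exact sign-flip permutation p of 0.0156, the smallest possible, and 0.0781 after adjustment over 5 measures, so it failed the correction. Genes per cell were higher in 6 of 7 libraries and equal in the WT host library of 8133 cells, by a mean of 0.07 ± 0.07 on the log2 scale (SD, n = 7; exact sign-flip permutation p = 0.0312, adjusted 0.0781). The mean difference in genes was 0.13 over 3 Eomes-KO and 0.02 over 4 WT host libraries. An exact permutation test between genotypes gave p = 0.0571, and 0.286 after adjustment over 10 such comparisons. Among cells of 10000 to 20000 UMIs the difference in genes was 0.01 on the log2 scale. It averaged 0.03 over 2 Eomes-KO and −0.01 over 3 WT host libraries, so it was small among cells of like depth.

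The difference in ribosomal percent between allantois endothelium and allantois mesoderm went opposite ways in the genotypes. Allantois endothelium minus allantois mesoderm was −0.750, −0.270 and −0.190 percentage points in the Eomes-KO libraries of 1153, 3346 and 3465 cells. It was 0.0450, 1.59, 1.16 and 1.55 points in the WT host libraries of 2414, 3791, 5819 and 8133 cells. The means were −0.403 and 1.08 points. An exact permutation test of the difference between genotypes gave p = 0.0571, the smallest for 3 against 4, and 0.286 after adjustment over the 10 within-library differences compared in this way. Both cell types enter the difference. The mesoderm medians were 26.3, 26.1 and 24.7 percent in these Eomes-KO libraries. In the WT host libraries they were 23.4, 24.8, 22.7 and 22.7 percent. The member medians averaged 25.3 and 24.5 percent. The part of each cell type in the reversal was not tested.

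**Figure D4:**
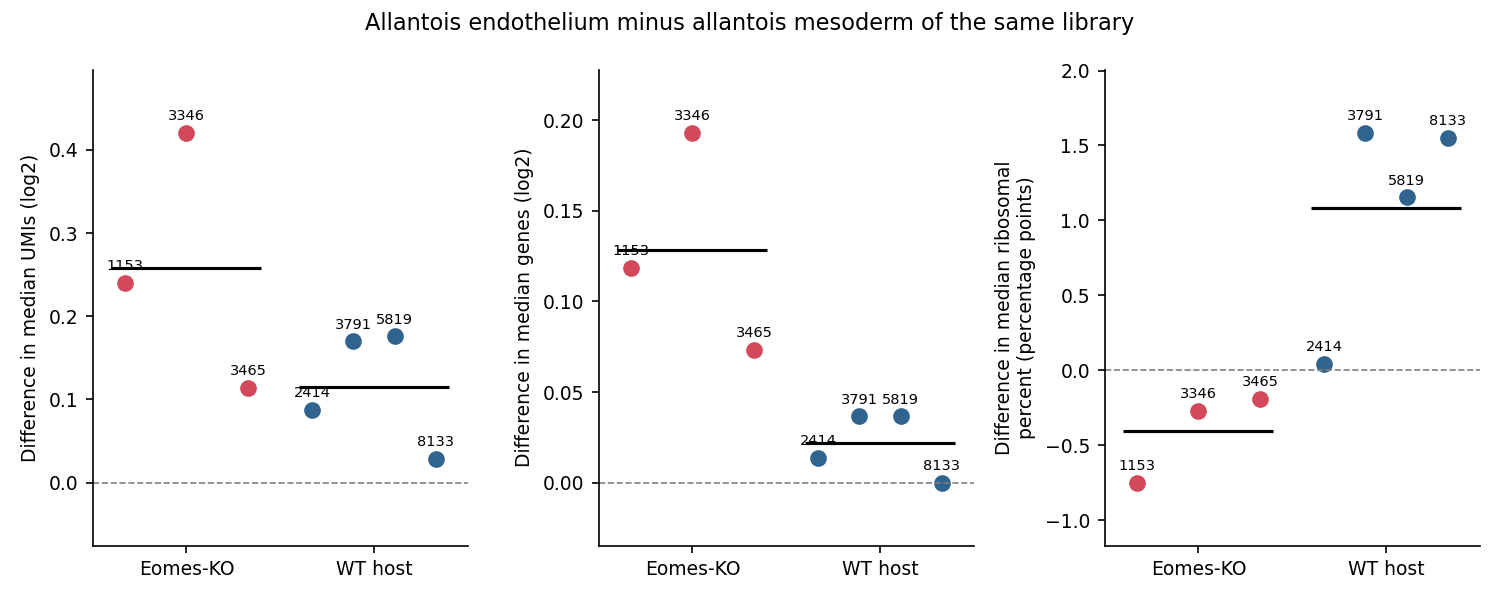
Median of allantois endothelium minus median of allantois mesoderm in the same library, for UMIs and genes per cell (log2) and ribosomal percent (percentage points), 1 point per library labelled with its number of cells and horizontal lines at the means. UMIs are above 0 in all 7 libraries, and ribosomal percent is below 0 in the 3 Eomes-KO libraries and above 0 in the 4 WT host libraries.

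Allantois endothelium was also compared with the other endothelial cells of the same library. Only 6 libraries had at least 5 cells of both, 2 of them Eomes-KO. The difference in median UMIs on the log2 scale was 0.06 and −0.06 in the Eomes-KO libraries of 3346 and 3465 cells. In the WT host libraries of 2414, 3791, 5819 and 8133 cells it was 0.28, 0.06, 0.20 and 0.14. The mean was 0.11 ± 0.12 (SD, n = 6; exact sign-flip permutation p = 0.0938, adjusted 0.156). Mitochondrial and ribosomal percent were each lower in 5 of 6 libraries, by means of −0.128 and −0.601 percentage points, with exact sign-flip permutation p-values of 0.0938 and 0.156. The mitochondrial mean was −0.063 without the Eomes-KO library of 3465 cells, and the ribosomal mean was −0.365 when the WT host library of 2414 cells was left out. None of the 5 measures passed after adjustment.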

How the data were processed

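Chimera cells were analysed from 1 deposited cell table. Per the labels and the submitters' processing notes, reads were processed with Cell Ranger 6.0.1 against mm10; each deposited UMI count is a cell's raw total. The deposited scores are the authors' doublet score and the fraction of the 15 nearest atlas cells with each transferred label. In the table, cells had at least 3163 UMIs and 1500 genes and a doublet score of at most 0.5; no further doublet call was made. Cell types were the authors' combined labels. Genotype came from tdTomato status; library names do not give the pool, so the authors' pool term could not be fitted. Every comparison used libraries as replicates: edgeR 4.0.16 quasi-likelihood tests on cells per type (types with at least 10 cells, library size = epiblast-derived cells, Benjamini-Hochberg adjustment), and exact two-sided permutation or sign-flip tests of libraries with at least 5 cells, tested on simulated data. Intervals are exact Clopper-Pearson. Alternatives used DESeq2 1.42.0 and limma 3.58.1, other denominators, filters and omitted libraries. Names were given to endothelial and allantois types and to labels that members carry. The members, shares and tests were chosen with earlier results of these data known.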

Additional observations from a re-analysis of the deposited data

Results flagged for a closer look

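Of 16 groups of 4 libraries examined for a single distant value, 1 stood out, where chance gives about 1 in 20 for values without ties. The median stage score of the members, the fraction of nearest atlas cells with the assigned stage, was 0.533 in the WT host library of 2414 cells, above the 0.467 shared by the other WT host libraries. Because the other values were tied, a difference of any size would have been flagged here. That library had 32 members.

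The difference in ribosomal percent between allantois endothelium and allantois mesoderm was below 0 in all 3 Eomes-KO libraries and above 0 in all 4 WT host libraries, a difference of −1.49 percentage points between genotypes (exact permutation p = 0.0571, adjusted 0.286). The WT host library of 2414 cells was nearly at 0, at 0.0450 points, and one of the Eomes-KO values rests on 5 members. The cause was not tested.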

How the results depend on the processing

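The log2 fold change of allantois endothelium among epiblast-derived cells was −0.61 with DESeq2 ratio size factors, −0.81 with limma on log2 shares and −0.14 with blood left out of the denominator. It ranged from −0.17 to 0.59 when single libraries were left out, below 0 without the Eomes-KO library of 3346 (−0.17) or 3465 cells (−0.051), and was 1.01 without those of 602 and 1153 cells (chosen after seeing the data). DESeq2 ratio size factors moved the median type by −0.90 and poscounts by 0.61, which gave 1.04 (adjusted p = 0.159). With extended labels, 7 of 69 types were called higher and 47 lower in Eomes-KO, against 8 and 16 of 33.

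The endothelial share of the allantois kept its direction under 8 alternatives and with each of 8 libraries left out, −23.6 to −18.1 points for the latter, where no exact p can fall below 0.0571. It was −26.2 points from 10000 UMIs and −14.3 points without the 2 small Eomes-KO libraries, both short of the threshold for the same reason. The fraction of members mapped to E8.5, which was lower in Eomes-KO, was 2.68 points higher there among members from 10000 UMIs. The extended score differed by −0.317 points as the percent of members at a score of 1 (chosen after seeing the data). Results far from the threshold changed sign for the stage score with at least 20 members per library or without the Eomes-KO library of 1153 cells (−0.0167 for both, 0.0222 at most), the extended score without the WT host library of 8133 cells (−0.0222, 0.0444 at most), the doublet score against mesoderm without the Eomes-KO library of 3346 cells (0.000833), and genes against other endothelium at 10000 to 20000 UMIs (−0.039, log2).

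No paired analysis was possible because the library names do not give the embryo pool. Permutation p-values rest on 3 or 4 libraries per genotype, and the 2 small Eomes-KO libraries allow only wide intervals.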
